A study of Mus musculus with 9 samples.

Results

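The comparison was between 2 mouse pancreatic tumour cell lines, escape line e1 and escape line e2, both derived from the same parental line and both resistant to immunotherapy. All 6 libraries of these lines among the 9 of the series were used, 3 per line. Levels are the deposited TPM values, which express a gene's transcripts relative to the library's total after allowing for transcript length. A gene was tested when it reached 1 TPM in 3 or more of the 6 libraries, which left 12132 of 24493 genes. The parental cells (3 libraries) are given as levels only. Parental, e1 and e2 cells all had the C57BL/6 genetic background. All were cultured in vitro in DMEM with fetal bovine serum and received no treatment before total RNA was extracted. No source used here names the immunotherapy or says whether a line is 1 clone. Nothing in the labels says that the 3 libraries of a line came from separate cultures, so the p-values below measure only the spread between these libraries, which may be technical.

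Tumour cells of epithelial origin can lose junction and keratin genes and gain genes of connective tissue cells, a change of state called the epithelial to mesenchymal transition. Mesenchymal cells are themselves diverse. Contractile, smooth-muscle-like cells build actin and myosin fibres under the control of the factor SRF and its partners, while other fibroblast-like states secrete proteoglycans, proteases and chemokines. Cytotoxic T cells see a tumour cell only through peptides held by class I molecules of the major histocompatibility complex. The heavy chains, the light chain (B2m), the peptide transporter and the immunoproteasome of this system are raised together by interferons.

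Both lines carried the mesenchymal identity that the series gives them. Vim, the intermediate filament of mesenchymal cells, was at 3275, 3649.8 and 3646 TPM in e1 and 3674, 3501 and 3612 TPM in e2, against 804 ± 199.5 TPM in the parental cells. The e1 and e2 values interleaved (log2 difference 0.03, 95% interval -0.09 to 0.15). Sparc, a collagen-binding matrix protein, was at 404 ± 21.1 TPM in e1 against 431 ± 1.92 TPM in e2 and was not called (log2 difference 0.09, 95% interval -0.02 to 0.21). Over 35 tested genes of a mesenchymal list, 12 were higher in e2 and 18 lower, with a median difference of -0.15. Among members detected in both lines, with at least 1 library of each at 1 TPM or more, 9 of 32 were higher and 18 lower (median -0.33). Means are given ± SD over 3 libraries throughout. Epcam, the classical epithelial surface antigen, stayed under 1 TPM in all 6 libraries and was not tested. Of the other cell types looked for, 13 of 13 lymphocyte, 11 of 12 endothelial and 10 of 14 macrophage markers found in the table were under 1 TPM in every library, Ptprc and Cd3e among them. In all 6 libraries 7 lymphocyte markers were listed at 0. Of the acinar and of the neural crest and glia markers, 10 of 11 and 5 of 9 were under 1 TPM throughout. The single tested endothelial marker, Egfl7, was lower in e2 (13.2 ± 0.59 TPM in e1 against 3.69 ± 0.584 TPM in e2) and the single tested acinar marker, Cela1, higher (7.89 ± 2.16 TPM in e1 against 16.1 ± 1.02 TPM in e2). Of the neural crest and glia markers, S100b (0.0795 ± 0.0387 TPM in e1 against 3.68 ± 0.641 TPM in e2) and Ngfr (0.0741 ± 0.0258 TPM in e1 against 2.93 ± 0.361 TPM in e2) were higher and Mbp was lower (5.83 ± 0.563 TPM in e1 against 4.54 ± 0.428 TPM in e2), a call lost without e1 library 2 or 3 or e2 library 2 or 3. Their sum was 5.49 to 6.93 TPM in e1 and 12.1 to 14.03 TPM in e2, and Sox10 was listed at 0. The 3 tested macrophage markers, Cd14, Mrc1 and Cd68, were higher in e2 (2.51, 1.68 and 0.55 on the log2 scale). The summed level of the 14 macrophage markers was 9.09 to 15.4 TPM in e1 and 63.3 to 69.4 TPM in e2. The part of other cells in these was not tested. In bulk RNA, fewer cells of a type and less RNA per cell cannot be told apart.

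Libraries of a line resembled each other more than those of the other line. Pearson's r of log2(TPM + 1) over all tested genes was 0.986 to 0.994 within e1, 0.993 to 0.994 within e2 and 0.896 to 0.911 between the lines. Library 1 of e1 stood apart from libraries 2 and 3. It was the highest or lowest of the 3 at 89.0% of tested genes, against 54.9% to 70.8% for each other library in its line. It was the highest at 4787 of the 12132 tested genes and the lowest at 6011, the background for such counts in the lists below. Where leaving it out turned the sign of a list's median or moved a count or median of a list by over 1.5 times, the values without it are given beside the list. Depth is unknown, because TPM values carry no read counts, and no counting interval is given.

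Among the 12132 tested genes, limma called 8703 (71.7%) at an adjusted p under 0.05, 4981 higher in e2 (41.1%) and 3722 lower (30.7%). Libraries of the 2 lines did not overlap at 78.4% of the genes. Those percentages are the background against which each group of genes below is read, together with the median log2 difference over all tested genes, 0.10 (quartiles -0.33 and 0.59). A log2 difference is e2 minus e1 on the log2(TPM + 1) scale with its standard error, and understates the change of low genes. A gene is called higher or lower only where limma's adjusted p was under 0.05. Median-ratio scaling in place of TPM shifted the median of all genes by -0.11 and gave 4269 higher (35.2%) against 4434 lower (36.5%), so small differences near that size have no firm sign. The medians of the gene lists below moved by -0.13 to -0.05 with that scaling. A gene with all 3 libraries of a line under 1 TPM passed the filter through the other line alone and so had to differ. The adjusted p of such a gene, where given below, is no separate support. Pdpn, Dcn, Nlrc5, Irf8, Cxcl12, Cd274, Hgf and Cldn3 are examples, as are Jam3, Robo1, Ror2, Igf2 and Hoxb9 in the other direction. Where such genes were 3 or more of a list of 8 or more, the count among the others, those detected in both lines, is given too. No share over all tested genes was taken under that restriction. Those counts therefore have no matching background and only describe the members. Without e1 library 1, 81.5% of genes were called, 5515 higher (45.5%) and 4376 lower (36.1%). Large differences leaned to e2: 1674 genes (13.8%) were higher in e2 by at least 1 on the log2 scale and 596 (4.91%) lower. How many of these passed the filter through 1 line alone was not counted. Each e2 library had more genes at 1 TPM or more (11986 to 12039) than each e1 library (11188 to 11509). At the extreme, 67 genes averaged 10 TPM or more in e2 with every e1 library under 1 TPM, and 8 genes did the reverse.

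Among called genes with 10 TPM or more in the higher line and no overlap between the lines, the furthest above e1 was Cck. This gene encodes the gut hormone cholecystokinin. Its level was 0.615, 0.461 and 1.44 TPM in e1 and 318, 302 and 324 TPM in e2, a log2 difference of 7.46 ± 0.19 (adjusted p = 8.69e-07). Serpine2, a secreted inhibitor of thrombin and plasminogen activators, was at 1.33, 1.73 and 1.76 TPM in e1 and 297, 285 and 291 TPM in e2, a difference of 6.81 ± 0.08 (adjusted p = 8.51e-08). Every e2 library exceeded every e1 library by more than 100-fold in both genes, and the parental cells, at 0.838 ± 0.362 TPM and 3.55 ± 1.0 TPM, were on the side of e1. Also high in e2 were Prl2c2 (6.38) and Prl2c3 (5.62), proliferin genes so alike in sequence that reads may be split between them. The microsomal glutathione transferase Mgst1 (6.24), the water channel Aqp8 (6.28) and the membrane glycoprotein podoplanin, Pdpn (6.08), followed. So did the prostaglandin transporter Slco2a1 (5.76) and Hhip, a decoy receptor for hedgehog ligands (5.62). The sulfotransferase Chst15 (5.33), the secreted protease inhibitor Slpi (5.24), Plvap (5.2) and the guanine deaminase Gda (5.16) were also among the 15 highest. In the other direction, Jam3, a junctional adhesion molecule, was at 37.6, 32.1 and 31.7 TPM in e1 and 0.378, 0.531 and 0.606 TPM in e2 (-4.53 ± 0.10, adjusted p = 4.94e-07). Robo1, the receptor for Slit guidance proteins, was at 19.3, 20.3 and 21.3 TPM in e1 and 0.0498, 0.0299 and 0.0389 TPM in e2 (-4.36 ± 0.07, adjusted p = 2.84e-07). Crabp2, which carries retinoic acid to the nucleus, was at 104, 173 and 164 TPM in e1 and 6.3, 7.56 and 5.69 TPM in e2 (-4.27 ± 0.21, adjusted p = 8.34e-06). Parental cells had under 1 TPM of each of these 3 genes on average. The solute carrier Slc35f2 (-4.08), Ydjc (-4.0), the GTPase-activating protein Dlc1 (-3.9), the heparan sulfate sulfotransferase Hs6st2 (-3.5) and the kinase Cdk18 (-3.3) were among the 15 lowest.

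**Figure D1:**
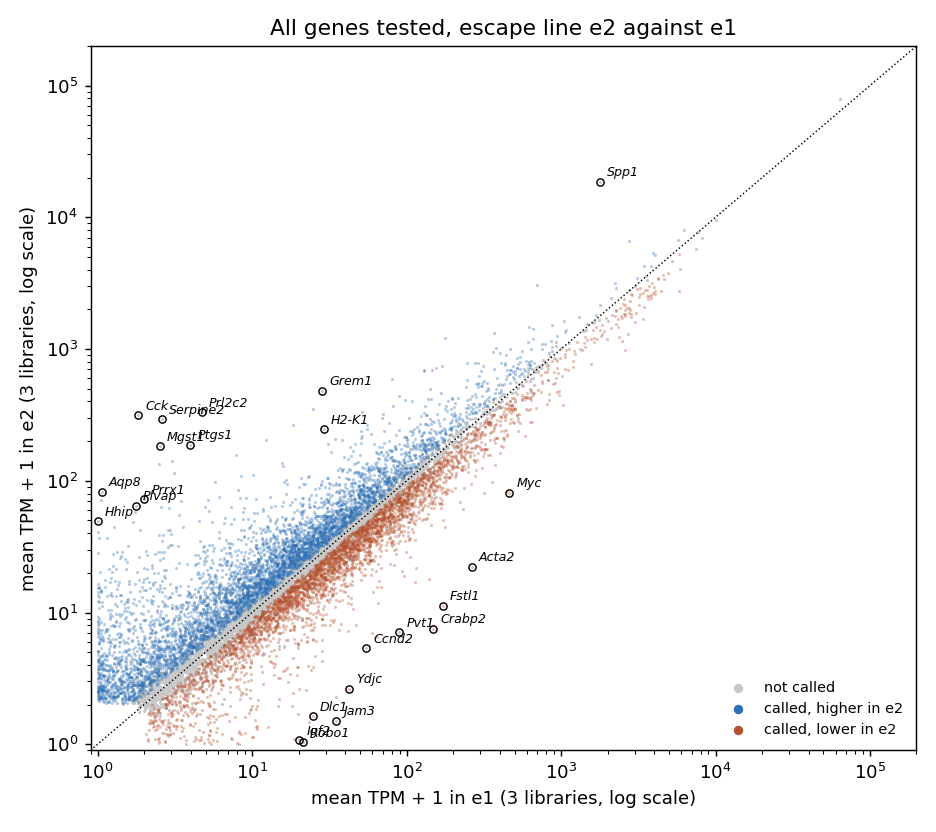
Mean TPM + 1 of every tested gene in e1 (x axis) and e2 (y axis), both on log scales, each point a gene and each mean over 3 libraries. Blue and orange points are the 4981 and 3722 genes called higher and lower in e2. Named points include Cck, Serpine2 and Mgst1 far above the diagonal and Jam3, Robo1 and Igf2 far below it, and Spp1 is the most abundant of the named genes.

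Contractile genes were mostly lower in e2. Of 18 tested members of the smooth muscle and contractile list, 14 were lower in e2 and 3 higher, with a median of -1.0. Of those detected in both lines, 1 of 15 was higher and 13 lower (median -1.13). Acta2, the smooth muscle actin that marks myofibroblasts (GRCm38 chromosome 19, 34240336 to 34255585), was at 358, 217 and 213 TPM in e1 and 22, 21 and 20.9 TPM in e2, a difference of -3.52 ± 0.20 (adjusted p = 1.53e-05). Tagln, an actin cross-linker of smooth muscle, was at 166, 56.1 and 56.8 TPM in e1 and 20.6, 19.99 and 18.3 TPM in e2 (-1.99 ± 0.41, adjusted p = 0.00494). The lines did not overlap in either gene. Library 1 of e1 was above the other 2 e1 libraries in both, as it was in 12 of the 18 members. Srf, the transcription factor that drives this programme, was lower as well, at 35.3, 44.3 and 42.2 TPM in e1 and 14.9, 14.7 and 14.9 TPM in e2 (-1.39 ± 0.09, adjusted p = 2.46e-05). The tropomyosin Tpm1 (-1.39), calponin 2 (Cnn2, -1.31), the myosin light chain Myl9 (-1.22), the actinin Actn1 (-1.13) and filamin (Flna, -0.88) were lower too. The SRF coactivators Mkl1 (-0.45) and Mkl2 (-0.75) had the same direction. Against it, Tpm2 was higher in e2 (0.39), as were 2 genes close to the filter, Cnn1 (0.418 ± 0.264 TPM in e1 against 1.86 ± 0.462 TPM in e2) and Actg2 (0.287 ± 0.267 TPM in e1 against 1.21 ± 0.135 TPM in e2).

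Genes linked to YAP and TEAD, the effectors of the Hippo pathway that respond to cell tension, were also more often lower. Of 24 tested members, 12 were lower in e2 and 4 higher (median -0.55). Library 1 of e1 was the highest e1 library in 20 of the 24, and without it 15 were lower and 7 higher (median -0.31). Among them were the secreted matricellular protein Cyr61 (1028 ± 28.2 TPM in e1 against 377 ± 4.15 TPM in e2, -1.45 ± 0.04) and the junction adaptors Ajuba (-1.95) and Amotl2 (-1.23). Endothelin 1 (Edn1, -2.53), Ankrd1 (-0.48), Yap1 itself (-0.61) and Tead1 (-0.87) were lower as well. Axl, a receptor kinase also counted as a target, was higher in e2 (202 ± 20.6 TPM in e1 against 364 ± 5.48 TPM in e2, 0.85 ± 0.07).

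RefSeq promoter windows (250 bases before to 50 after the start, GRCm38.p6) were available for 16 of the 18 contractile and 19 of the 24 Hippo genes. The TEAD motif GGAATG, on either strand, lay in 13 of the 19 Hippo windows (68.4%) and 8 of the 16 contractile windows (50%), against 13.9% of the 9594 tested genes with a window. Other motifs were searched for as well. The AP-1 site (TGANTCA, N being any base) lay in 3 of 16 contractile windows (18.8%) and 0 of 19 Hippo windows, against 6.26% of tested genes. The E-box (CANNTG) lay in 11 of 16 (68.8%) and 6 of 19 (31.6%), against 66.1%. The SRF motif known as the CArG box, searched for after these values had been seen, lay in the windows of Srf, Cnn2 and Myl9, 3 of 16 (18.8%), against 1.53% of tested genes. The TEAD motif also lay in windows of Axl and Vgll3, which were higher in e2, and of Wwtr1, Tead3 and Tagln2, which were not called. Both Srf and Amotl2 were lower in e2 and hold a match, so the 250 bases upstream of each are shown. Those of Srf (chr17:46556163-46556412, minus strand) have 2 CArG boxes in capitals. Those of Amotl2 (chr9:102717554-102717803, plus strand) have the TEAD motif, on the reverse strand, in capitals. A match is letters only, and binding was not measured.
Srf: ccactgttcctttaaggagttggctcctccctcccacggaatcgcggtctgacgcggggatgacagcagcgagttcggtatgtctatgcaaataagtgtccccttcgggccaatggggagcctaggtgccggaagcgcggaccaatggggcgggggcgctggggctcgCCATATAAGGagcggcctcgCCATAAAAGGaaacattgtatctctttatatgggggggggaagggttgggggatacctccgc
Amotl2: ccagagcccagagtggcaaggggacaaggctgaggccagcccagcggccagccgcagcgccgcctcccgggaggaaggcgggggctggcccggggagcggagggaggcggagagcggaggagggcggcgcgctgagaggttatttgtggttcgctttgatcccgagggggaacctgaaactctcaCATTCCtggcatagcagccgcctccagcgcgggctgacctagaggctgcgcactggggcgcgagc

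Of 34 tested transcription factors of mesenchymal states, 16 (47.1%) were higher in e2 and 12 (35.3%) lower (median 0.18), shares close to those of all tested genes. Among those detected in both lines, 14 of 28 were higher and 8 lower (median 0.21). Prrx1, a homeobox factor of limb and craniofacial mesenchyme (GRCm38 chromosome 1, 163245119 to 163315145), was at 0.961, 0.984 and 1.06 TPM in e1 and 72.9, 71 and 70.2 TPM in e2, a difference of 5.18 ± 0.05 (adjusted p = 8.36e-08). Its e1 libraries sat close to 1 TPM and its e2 libraries close to each other, with no overlap. Snai2, an E-box repressor of epithelial genes, went the other way, at 20.8, 27 and 25.5 TPM in e1 and 3.83, 3.66 and 3.59 TPM in e2 (-2.43 ± 0.10, adjusted p = 5.05e-06). Its relative Snai1 was lower in e2 too (31.7 ± 2.25 TPM in e1 against 12.6 ± 0.365 TPM in e2, -1.26). Zeb1, another E-box repressor, was lower by a small amount (12.1 ± 0.219 TPM in e1 against 10.8 ± 0.396 TPM in e2, -0.15 ± 0.05, adjusted p = 0.0455). It lost its call when any library but e1 library 1 was left out (adjusted p = 0.0872 to 0.156). Twist1 was lower (-0.45) and its relative Twist2 higher (0.61). The T-box factor Tbx3 (0.00772 ± 0.0134 TPM in e1 against 8.2 ± 0.161 TPM in e2) and the reprogramming factor Klf4 (7.67 ± 0.528 TPM in e1 against 56.5 ± 0.694 TPM in e2) were higher. So were the forkhead factor Foxf2 (2.44), the ETS factor Etv1 (2.4) and Msx1 (2.35). Lower were Runx3 (18.5 ± 1.24 TPM in e1 against 2.38 ± 0.268 TPM in e2), Tbx18 (-1.99), Hic1 (-1.7) and Ebf1 (-1.54).

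Homeobox genes of the Hox clusters, which record position along the body axis, were expressed in e1 and nearly off in e2. All 10 tested members were lower in e2 (median -2.65), but 9 of the 10 passed the filter through e1 alone and so had to differ. In all, 26 of the 39 listed Hox genes were under 1 TPM in all 6 libraries. Hoxb9 was at 12.1, 7.38 and 7.53 TPM in e1 and 0.146, 0.116 and 0.143 TPM in e2 (-3.11 ± 0.18, adjusted p = 1.63e-05). In the same cluster, Hoxb13 (9.74 ± 1.89 TPM in e1 against 0.305 ± 0.069 TPM in e2) and Hoxb7 (7.94 ± 0.663 TPM in e1 against 0.21 ± 0.0695 TPM in e2) were also near 0 in e2. Hoxa10 was at 13.7 ± 1.27 TPM in e1 against 0.936 ± 0.119 TPM in e2, and parental cells had intermediate levels of it (3.79 ± 1.5 TPM).

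Imprinted genes that limit or promote fetal growth included 3 that were above 1 TPM in every e1 library and below it in every e2 library. Igf2, a fetal growth factor, was at 21.2, 18 and 18.5 TPM in e1 and 0.0889, 0.0212 and 0.107 TPM in e2 (-4.23 ± 0.09, adjusted p = 4.45e-07). Its neighbour H19, a noncoding RNA, was at 7.2 ± 1.61 TPM in e1 against 0.21 ± 0.0642 TPM in e2 (-2.74). Cdkn1c, a cyclin-dependent kinase inhibitor further along chromosome 7, was at 5.91 ± 1.08 TPM in e1 against 0.71 ± 0.222 TPM in e2 (-2.01). Parental cells had little Igf2 or H19 (0.0226 ± 0.0261 TPM and 0.0291 ± 0.0272 TPM). Of the 11 imprinted genes tested, 3 were higher and 4 lower in e2 (median -0.15, and -0.04 without e1 library 1, -0.25 without e1 library 3 and -0.09 without e2 library 2). Detected in both lines were 6, of which 1 was higher and 1 lower (median -0.02). The higher ones were Dcn, Impact and Kcnq1ot1. Xist, the noncoding RNA of the inactive X chromosome, was present in both lines (19.9 ± 1.83 TPM in e1 against 21.2 ± 0.517 TPM in e2, 0.09, 95% interval -0.09 to 0.27), and the Y-linked Ddx3y was under 1 TPM in all 6 libraries.

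**Figure D2:**
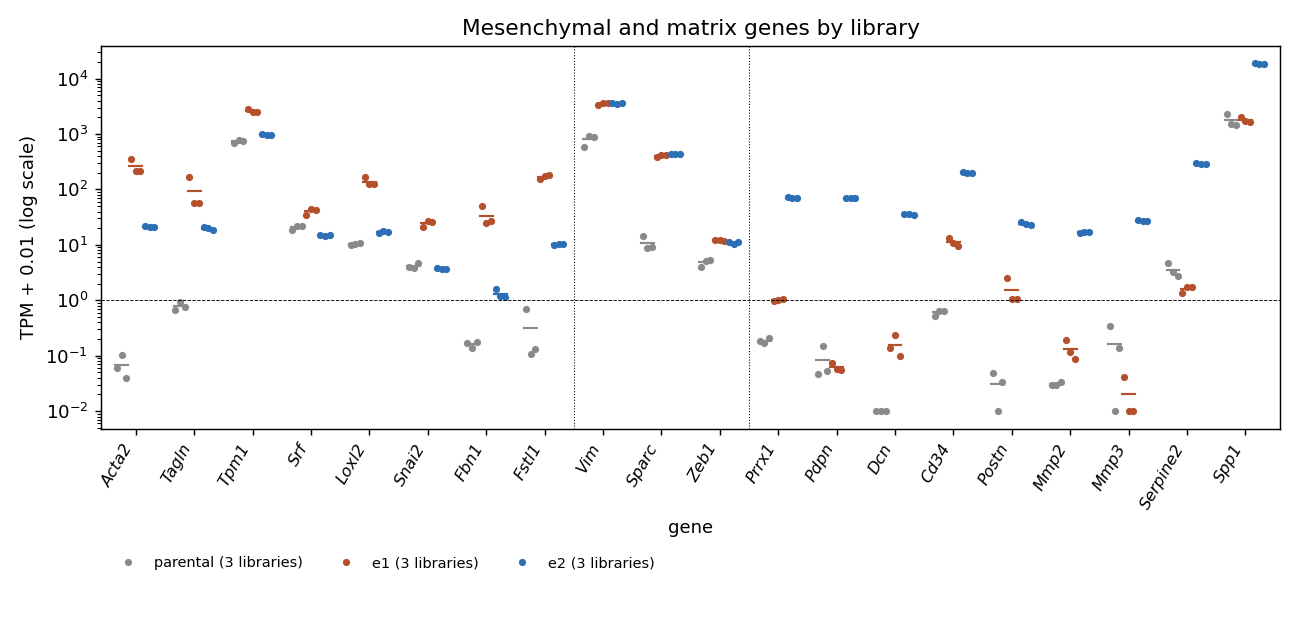
TPM + 0.01 on a log scale for 20 mesenchymal and matrix genes, with 3 points per line (grey parental, orange e1, blue e2), a bar at each mean and a dashed line at 1 TPM. The 8 genes on the left are lower in e2, the 3 in the middle differ by at most 0.15 on the log2 scale, and the 9 on the right are higher in e2.

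Matrix glycoproteins were more often higher in e2, 16 of 27 tested against 7 lower (median 0.91). Dcn, the collagen-organising proteoglycan decorin, was at 0.127, 0.227 and 0.0897 TPM in e1 and 36.3, 35.5 and 34.6 TPM in e2 (4.99 ± 0.07, adjusted p = 1.98e-07). Its relative Bgn (biglycan) was at 5.71 ± 1.11 TPM in e1 against 51.6 ± 1.06 TPM in e2 (2.98). Periostin, Postn, was at 1.53 ± 0.841 TPM in e1 against 24.1 ± 1.32 TPM in e2 (3.36), and fibronectin, Fn1, at 185 ± 73.2 TPM in e1 against 404 ± 10.6 TPM in e2 (1.19). Spp1, the secreted phosphoprotein osteopontin, was at 2009.6, 1688 and 1664 TPM in e1 and 18834, 18678 and 18234 TPM in e2, a difference of 3.38 ± 0.07 (adjusted p = 5.06e-07). It was the most abundant of the named genes in e2. Fbn1, which forms microfibrils, went the other way at 50.2, 24.7 and 26.6 TPM in e1 and 1.56, 1.18 and 1.16 TPM in e2 (-3.85 ± 0.26, adjusted p = 3.41e-05). Fstl1, a secreted BMP antagonist, was lower at 171 ± 13.4 TPM in e1 against 10.3 ± 0.302 TPM in e2 (-3.92), and so was thrombospondin 1, Thbs1, at 221 ± 48 TPM in e1 against 68.4 ± 2.18 TPM in e2 (-1.66). Outside 4 chromosome regions that stood apart as a whole, described at the end, 13 of 24 were higher, 7 lower and the median was 0.43. Leaving out the 2 members that passed the filter through e2 alone gave a median of 0.44.

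Of 19 tested collagens, 9 were higher in e2 and 5 lower (median 0.36). With e1 library 1 left out, 10 were higher and 8 lower (median 0.55). Both chains of type I collagen were lower in e2. Col1a1 was at 132, 87.3 and 89.8 TPM in e1 and 35.6, 34 and 34.7 TPM in e2 (-1.52 ± 0.16, adjusted p = 1.99e-04), and Col1a2 at 116 ± 6.66 TPM in e1 against 82 ± 2.97 TPM in e2 (-0.49). Lower too were Col12a1 (-1.53) and Col7a1 (-1.43). Basement membrane chains were higher: Col4a1 (37.2 ± 2.17 TPM in e1 against 117 ± 1.68 TPM in e2, 1.63), Col4a2 (0.84), Col4a5 (1.11) and Col18a1 (49.3 ± 4.15 TPM in e1 against 194 ± 4.16 TPM in e2, 1.96). The fibrillar Col5a2 was higher as well (0.48 ± 0.188 TPM in e1 against 10.5 ± 0.363 TPM in e2, 2.97). The cross-linking enzymes Lox (23.2 ± 8.47 TPM in e1 against 7.25 ± 0.311 TPM in e2, -1.5) and Loxl2 (139 ± 22.9 TPM in e1 against 17.1 ± 0.533 TPM in e2, -2.94) were lower, as type I collagen was.

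Matrix proteases and their inhibitors went in both directions, 12 of 23 tested being higher in e2 and 9 lower (median 0.30). Among those detected in both lines, 6 of 15 were higher and 7 lower (median -0.31). With all regions included, the sign of the median thus rested on the 8 members that entered through 1 line. Of the 23, 2 lie on chromosome 14 and 2 on chromosome 16, which stood lower in e2 as a whole. On chromosome 5 and on the lower part of chromosome 1, which stood higher, lies 1 each. Outside these regions 11 of 17 were higher, 4 lower and the median was 0.51. Plau, the urokinase that activates plasminogen, was lower in e2 at 78.9, 56.9 and 56.4 TPM in e1 and 11.2, 10.5 and 10.9 TPM in e2 (-2.43 ± 0.13, adjusted p = 1.34e-05). The tissue activator Plat (-1.39) and the metalloproteinases Adam8 (-1.81) and Adamts1 (-1.52) were lower as well. So was the matrix metalloproteinase Mmp14, at 100.7, 95.9 and 98.1 TPM in e1 and 67.3, 68.8 and 65.9 TPM in e2. Other matrix metalloproteinases were higher, among them the stromelysin Mmp3 (0.0107 ± 0.0185 TPM in e1 against 27.2 ± 0.898 TPM in e2) and the gelatinase Mmp2 (0.12 ± 0.0528 TPM in e1 against 16.8 ± 0.312 TPM in e2). Mmp19 (0.206 ± 0.128 TPM in e1 against 16.1 ± 1.06 TPM in e2) and Mmp10 (0.0111 ± 0.0193 TPM in e1 against 7.46 ± 0.263 TPM in e2) were higher too. None of the e1 libraries had 1 TPM of Mmp3, Mmp2, Mmp19 or Mmp10, which therefore passed the filter through e2.

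Of 13 tested fibroblast markers, a list of surface and matrix genes, 5 were higher in e2 (38.5%) and 4 lower (30.8%). These were near the shares over all tested genes (median 0.06, and -0.07 with median-ratio scaling). The 4 lower were Dpt, Fbln1, Col1a1 and Col1a2, which encode matrix proteins. When e1 library 1 was left out, 5 were higher and 7 lower (median -0.13), and of those detected in both lines 3 of 10 were higher and 3 lower (median -0.11). Pdpn was at 0.0625, 0.0478 and 0.0453 TPM in e1 and 71, 69.9 and 70.05 TPM in e2 (6.08 ± 0.05, adjusted p = 8.36e-08). Cd34, a sialomucin of fibroblast progenitors, was at 13.4, 10.7 and 9.68 TPM in e1 and 206, 199.98 and 199 TPM in e2 (4.06 ± 0.11, adjusted p = 1.11e-06). Ly6a (129.5 ± 19.98 TPM in e1 against 677 ± 15.6 TPM in e2) and Pdgfra, a receptor for platelet-derived growth factors (1.0 ± 0.399 TPM in e1 against 5.26 ± 0.287 TPM in e2), were also higher. Dpt, the matrix protein dermatopontin, was lower (9.77 ± 4.62 TPM in e1 against 0.366 ± 0.118 TPM in e2). Pdgfrb was not called with all libraries (21.9 ± 6.64 TPM in e1 against 22.3 ± 0.934 TPM in e2, 0.08, 95% interval -0.46 to 0.61). It was lower in e2 without e1 library 1 (-0.20, adjusted p = 0.00233) and was listed at 0 in the 3 parental libraries. The laminin receptor chains Itgb4 (1.51 ± 0.414 TPM in e1 against 37.8 ± 0.784 TPM in e2, 3.96) and Itga6 (31.5 ± 5.67 TPM in e1 against 165 ± 6.72 TPM in e2, 2.37) were higher in e2. The vitronectin receptor chain Itgb3 was lower (9.76 ± 0.713 TPM in e1 against 0.949 ± 0.0908 TPM in e2, -2.46). Integrins as a group gave 5 higher and 6 lower of 15 (median -0.17). Without e1 library 1, 7 were higher and 7 lower (median -0.06), and of those detected in both lines 3 of 12 were higher and 5 lower (median -0.34).

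Class I antigen presentation genes were mostly higher in e2. Of 25 tested genes, 17 were higher in e2 and 3 lower, with a median of 0.81, and 18 and 3 without e1 library 1. Of those detected in both lines, 14 of 22 were higher and 3 lower (median 0.65). B2m, the invariant light chain, was at 832, 635 and 632 TPM in e1 and 3072, 3113 and 3002 TPM in e2 (2.14 ± 0.11, adjusted p = 9.85e-06). H2-K1, a classical heavy chain, was at 48.6, 18.5 and 17 TPM in e1 and 243, 242 and 249.9 TPM in e2 (3.25 ± 0.38, adjusted p = 3.49e-04). H2-D1, the other classical heavy chain, was at 130.5 ± 23.3 TPM in e1 against 367 ± 8.1 TPM in e2 (1.5). The nonclassical H2-Q4 was at 1.89 ± 1.23 TPM in e1 against 61.2 ± 2.38 TPM in e2 (4.5) and H2-Q7 at 0.0396 ± 0.0686 TPM in e1 against 19.3 ± 1.31 TPM in e2 (4.29). These heavy chain genes are close copies of each other, so their reads may be shared. No e2 library overlapped an e1 library in any of the 5 genes, and for H2-K1 the parental level (145 ± 8.27 TPM) lay between the lines. Parental libraries were below both lines for B2m (206, 189 and 182 TPM) and H2-D1 (91.6, 108 and 102 TPM). For H2-Q4 and H2-Q7 they were near e1.

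Of the other 20 tested genes of the list, 12 were higher in e2, 3 lower and 5 not called. Nlrc5, the transactivator of class I genes, was at 0.542, 0.228 and 0.227 TPM in e1 and 5.41, 6.1 and 5.95 TPM in e2 (2.36 ± 0.11, adjusted p = 8.16e-06). Both chains of the peptide transporter were higher, Tap1 at 1.21 ± 0.378 TPM in e1 against 8.38 ± 0.463 TPM in e2 (2.1) and Tap2 at 4.57 ± 0.85 TPM in e1 against 15.6 ± 0.876 TPM in e2 (1.58). So were the immunoproteasome subunits Psmb8 (3.88 ± 3.27 TPM in e1 against 22.2 ± 0.729 TPM in e2, 2.45) and Psmb9 (1.41 ± 0.554 TPM in e1 against 7.9 ± 0.675 TPM in e2, 1.91). The proteasome activator subunits Psme1 (179 ± 8.5 TPM in e1 against 129 ± 4.94 TPM in e2, -0.46) and Psme2 (227 ± 11.6 TPM in e1 against 153 ± 5.95 TPM in e2, -0.57) were lower in e2. Both lie on chromosome 14, whose tested genes had a median of about that size (-0.50). Tapbp, which loads peptide, was at 73.7 ± 0.72 TPM in e1 against 77.7 ± 2.32 TPM in e2 (95% interval of the difference -0.03 to 0.18). All 9 class II genes of the table, Ciita and Cd74 included, failed the filter.

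Interferon-response genes were mostly higher in e2. Of 40 tested type I response genes, 30 were higher and 2 lower (median 1.08), and 15 of 24 interferon-gamma response genes were higher and 1 lower (median 1.0). In those detected in both lines, 25 of 35 were higher and 2 lower (median 1.0) for the type I list, and 9 of 18 were higher and 1 lower (median 0.25) for the interferon-gamma list. Lower members of the interferon-gamma list rose from 1 to 5 with median-ratio scaling, to 4 without e1 library 1 and to 2 without either of the other e1 libraries. Irf7, the factor that amplifies type I interferon, was at 5.23, 2.06 and 2.46 TPM in e1 and 20.7, 23.6 and 21.9 TPM in e2 (2.51 ± 0.26, adjusted p = 1.99e-04). Irf8, a factor of myeloid cells, was at 0.0194, 0.029 and 0 TPM in e1 and 6.76, 7.45 and 7.47 TPM in e2 (3.02 ± 0.07, adjusted p = 7.16e-07). The nucleic acid sensor Zbp1 (1.44 ± 0.767 TPM in e1 against 18.8 ± 1.68 TPM in e2, 3.06) and the antiviral synthetase Oas1a (1.1 ± 1.46 TPM in e1 against 11.5 ± 0.773 TPM in e2, 2.78) were higher. The virion tether Bst2 (80.1 ± 50.7 TPM in e1 against 366 ± 8.47 TPM in e2, 2.35), the protease Usp18 (2.33) and the GTPases Iigp1 (0.0948 ± 0.0744 TPM in e1 against 7.2 ± 0.674 TPM in e2) and Gbp6 (0.119 ± 0.0524 TPM in e1 against 6.16 ± 0.332 TPM in e2) were higher too. Oas and Gbp genes have close paralogs, so the split of reads within each family is uncertain. Of the 40 type I genes, 7 lie on chromosome 5 and 1 on the lower part of chromosome 1, which stood higher in e2 as a whole. A further 4 lie on chromosome 16 and 1 on chromosome 14, which stood lower. Outside these regions 17 of 27 were higher, 2 lower and the median was 0.62.

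Isg15, a ubiquitin-like interferon product, was at 66.5, 28.1 and 28.3 TPM in e1 and 32.3, 32.3 and 30.9 TPM in e2. Ifit1, which binds viral RNA, was at 22, 8.83 and 9.52 TPM in e1 and 8.78, 8.64 and 10.4 TPM in e2. In both genes e1 library 1 was above libraries 2 and 3 of e1, as it was in 31 of the 40 type I genes. Neither Isg15 (-0.24, 95% interval -1.01 to 0.54) nor Ifit1 (-0.38, 95% interval -1.16 to 0.39) was called. Without that library Isg15 was higher in e2 by 0.17 (adjusted p = 0.00281). Among T-cell-attracting chemokines, 2 of 7 were higher and 2 lower (median -0.37). With e1 library 1 left out, 2 were higher and 3 lower (median -0.08). Leaving out another library gave medians from -0.685 (e1 library 3) to -0.14 (e2 library 3) and 0 lower members without e2 library 2. Ccl5 was at 34.3, 13.5 and 15.7 TPM in e1 and 8.78, 6.13 and 7.4 TPM in e2, lower in e2 (-1.29 ± 0.34, adjusted p = 0.0128; adjusted p = 0.0513 without e2 library 2). Cxcl10 was at 59.2, 24 and 23.9 TPM in e1 and 20.1, 16.8 and 15.4 TPM in e2 and was not called (-0.87, 95% interval -1.71 to -0.03, adjusted p = 0.0611), but was lower in e2 without e1 library 1 (-0.45, adjusted p = 0.00988). Irf1 (52.4 ± 1.41 TPM in e1 against 38.1 ± 0.962 TPM in e2, -0.45) and Samhd1, which degrades nucleotides (81.8 ± 1.68 TPM in e1 against 39.5 ± 1.33 TPM in e2, -1.03), were lower in e2. The interferon receptor kinase Jak2 was higher (8.86 ± 1.66 TPM in e1 against 34 ± 0.154 TPM in e2, 1.84). Of the membrane proteins that restrict virus entry, Ifitm2 and Ifitm3 were higher in e2 (0.81 and 0.46) and Ifitm1 lower (317 ± 98.3 TPM in e1 against 79.99 ± 1.3 TPM in e2, -1.92). The other tested member of this family, Ifitm10, was lower too, which gave 2 higher and 2 lower of 4. These genes are paralogs, and any sharing of reads between them was not tested.

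The core of the interferon-stimulated response element (TTTC, then any 2 bases, then TTTC, on either strand) lay in 3.65% of the promoter windows of tested genes. It lay in those of 15 of 29 type I genes (51.7%), 10 of 19 interferon-gamma genes (52.6%) and 5 of 19 class I genes (26.3%). The type I and interferon-gamma lists share members. The gamma-activated site (TTCNNNGAA) lay in 8 of 19 interferon-gamma windows (42.1%), 7 of 29 type I (24.1%) and 2 of 19 class I (10.5%), against 8.16% of tested genes. The AP-1 site lay in 3 of 19 (15.8%), 7 of 29 (24.1%) and 0 of 19, against 6.26%. Upstream bases of 3 genes of these lists are printed because they hold the response element core and differ in their call. Oas1a (chr5:120907526-120907775, minus strand) and B2m (chr2:122147437-122147686, plus strand) were higher in e2 and Isg15 (chr4:156200819-156201068, minus strand) was not called. Capitals mark the core, which occurs as 2 overlapping copies in Oas1a, 3 in Isg15 and a single copy in B2m, all on the reverse strand.
Oas1a: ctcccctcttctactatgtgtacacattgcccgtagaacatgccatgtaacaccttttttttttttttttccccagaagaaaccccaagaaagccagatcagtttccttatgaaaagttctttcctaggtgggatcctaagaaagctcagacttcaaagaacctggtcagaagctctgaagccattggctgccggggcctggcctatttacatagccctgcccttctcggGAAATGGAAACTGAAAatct
B2m: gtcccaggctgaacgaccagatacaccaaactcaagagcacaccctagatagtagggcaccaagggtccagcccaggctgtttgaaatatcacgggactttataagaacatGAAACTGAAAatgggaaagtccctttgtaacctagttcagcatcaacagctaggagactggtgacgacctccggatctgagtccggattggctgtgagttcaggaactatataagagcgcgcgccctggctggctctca
Isg15: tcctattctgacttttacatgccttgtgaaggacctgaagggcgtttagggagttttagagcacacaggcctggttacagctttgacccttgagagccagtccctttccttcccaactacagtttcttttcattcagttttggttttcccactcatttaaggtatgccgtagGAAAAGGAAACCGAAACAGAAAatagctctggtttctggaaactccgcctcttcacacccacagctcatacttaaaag

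**Figure D3:**
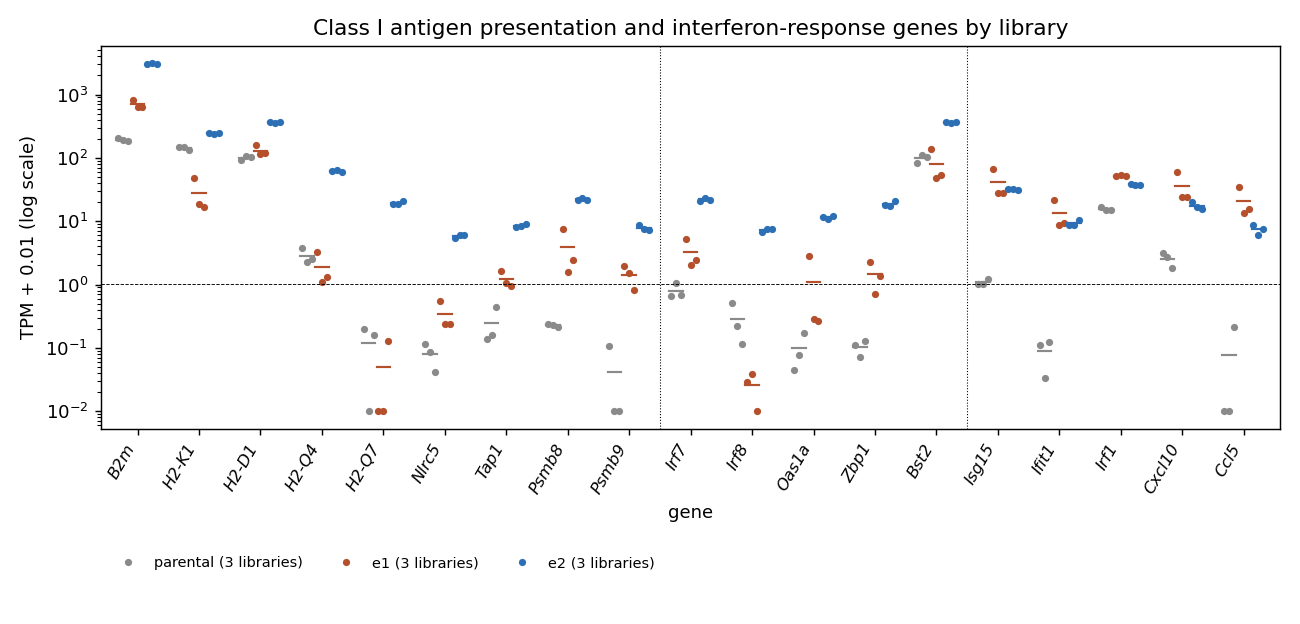
TPM + 0.01 on a log scale for 19 class I and interferon-response genes, with 3 points per line (grey parental, orange e1, blue e2), a bar at each mean and a dashed line at 1 TPM. All e2 points lie above all e1 points in the 14 genes on the left. In the 5 on the right they overlap or lie below, with e1 library 1, the leftmost orange point, highest in Isg15, Ifit1, Cxcl10 and Ccl5.

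Myeloid-attracting chemokines and growth factors were mostly higher in e2, 13 of 17 tested against 3 lower (median 1.24). Counting members detected in both lines, 8 of 12 were higher and 3 lower (median 1.0). Cxcl5, which draws neutrophils, was at 0.641, 1.47 and 1.14 TPM in e1 and 21.5, 21.1 and 18.6 TPM in e2 (3.38 ± 0.16, adjusted p = 7.16e-06). Cxcl12, the ligand of Cxcr4, was at 0.061, 0.0713 and 0.0677 TPM in e1 and 10.3, 9.55 and 10.8 TPM in e2 (3.39 ± 0.07, adjusted p = 4.91e-07). Csf2, the granulocyte and macrophage growth factor, was at 0.42 ± 0.113 TPM in e1 against 11.2 ± 0.945 TPM in e2 (3.11), and Ccl2, which draws monocytes, at 34.1 ± 6.15 TPM in e1 against 95.3 ± 2.0 TPM in e2 (1.47). Cxcl14 was lower in e2 (18.5 ± 5.43 TPM in e1 against 2.83 ± 0.202 TPM in e2, -2.32), with Ccl9 (-1.15), and the neutrophil chemokine Cxcl1 was under 1 TPM in all 6 libraries. Complement genes were higher in 7 of 9 tested and lower in none (median 1.23), although 5 of the 9 passed the filter through e2 alone. Of the other 4, 2 were higher and none lower (median 0.17), and 1 of the 9 was lower with median-ratio scaling, without e1 library 1 or without e2 library 1. C3 was the most changed (0.0188 ± 0.0109 TPM in e1 against 7.88 ± 0.457 TPM in e2, 3.12). The NF-kB list had 16 higher and 4 lower of 22 (median 0.70). The noncanonical subunits Nfkb2 and Relb (1.02 and 0.91) and the regulators Bcl3 (2.18) and Nfkbie (2.16) were higher, whereas Nfkb1 and Rel were lower (-0.21 and -0.48).

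Molecules that restrain immune cells were higher in 12 of 18 tested and lower in 3 (median 0.77), with 1 lower whichever e2 library was left out. Of the members detected in both lines, 9 of 15 were higher and 3 lower (median 0.56). Cd47, the signal that deters phagocytes, was at 37.8, 51.3 and 49.9 TPM in e1 and 137, 131 and 135 TPM in e2 (1.53 ± 0.12, adjusted p = 5.23e-05), although chromosome 16, where it lies, stood lower in e2. Cd274, which encodes PD-L1, was low in both lines but higher in e2, at 0.868, 0.492 and 0.682 TPM in e1 and 2.28, 2.1 and 2.36 TPM in e2 (0.96 ± 0.10, adjusted p = 2.19e-04). Its e1 libraries were all under 1 TPM, so it passed the filter through e2 alone and had to differ. The tryptophan-degrading enzyme Ido1 was at 0.101 ± 0.0992 TPM in e1 against 3.96 ± 0.858 TPM in e2 (2.16), and Cd24a at 26.9 ± 6.98 TPM in e1 against 92.7 ± 0.441 TPM in e2 (1.78). Tgfb2 (-0.91) and the cyclooxygenase Ptgs2 (-0.59, adjusted p = 0.0204) were lower. Ptgs2 stood at -0.38 without e1 library 1 and lost its call whichever e2 library was left out (adjusted p = 0.0533 to 0.0694). Its sister cyclooxygenase Ptgs1 was at 2.1, 3.28 and 3.55 TPM in e1 and 189.9, 184 and 185 TPM in e2 (5.58 ± 0.14, adjusted p = 9.68e-07). Death receptor and necroptosis genes were higher in 16 of 21 and lower in 3 (median 0.70). The receptor Fas was at 1.66 ± 0.615 TPM in e1 against 8.12 ± 0.257 TPM in e2 (1.8), and the gasdermin Gsdmd at 10.6 ± 2.39 TPM in e1 against 35 ± 1.03 TPM in e2 (1.66). Casp8 (25.3 ± 2.32 TPM in e1 against 53.3 ± 1.65 TPM in e2) and its inhibitor Cflar (19.9 ± 1.7 TPM in e1 against 56.9 ± 5.45 TPM in e2) were higher, both on the part of chromosome 1 that stood higher. The necroptosis kinase Ripk3 was lower in e2, at 27.9, 36.4 and 35 TPM in e1 and 8.43, 7.64 and 7.39 TPM in e2 (-1.94 ± 0.11, adjusted p = 1.58e-05). Alcam, an adhesion molecule bound by T cells, was lower at 28.6 ± 0.667 TPM in e1 against 7.07 ± 0.284 TPM in e2 (-1.88).

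Signalling genes were next compared by pathway. In the TGF-beta and BMP list, 21 of 38 were higher and 8 lower (median 0.43). Among those detected in both lines, 14 of 31 were higher and 8 lower (median 0.29). Grem1, a secreted BMP antagonist, was at 23.9, 28.1 and 29.8 TPM in e1 and 491, 473 and 481 TPM in e2 (4.1 ± 0.08, adjusted p = 4.25e-07). The ligand Bmp2 was at 0.423 ± 0.0338 TPM in e1 against 12.5 ± 0.339 TPM in e2 (3.24), and the BMP target Id4 at 0.406 ± 0.0454 TPM in e1 against 25 ± 0.297 TPM in e2 (4.21). The other Id genes were higher as well, Id1 by 2.65, Id2 by 2.19 and Id3 by 1.31 (adjusted p = 0.0355). The value of Id3 was 0.76 without e1 library 1, and its call was lost whichever e2 library was left out (adjusted p = 0.0818 to 0.0926). Lower were the ligand Tgfb3 (73 ± 14.2 TPM in e1 against 31.6 ± 1.67 TPM in e2, -1.17), the receptor Tgfbr2 (-0.76) and the antagonist Fstl3 (-1.97). Wnt genes gave 18 higher and 10 lower of 31 (median 0.36), but outside the regions that stood apart 11 and 10 of 24 (median -0.04). Of those detected in both lines, 15 of 25 were higher and 7 lower (median 0.36). The Wnt5a receptor Ror2 was lower at 25.8, 20.6 and 21.1 TPM in e1 and 0.599, 0.385 and 0.456 TPM in e2 (-3.99 ± 0.11, adjusted p = 1.20e-06). The antagonist Dkk2 was higher at 0.6 ± 0.203 TPM in e1 against 15.4 ± 0.412 TPM in e2 (3.37). In the hedgehog list, Gli3 and the coreceptors Boc and Cdon were lower (-2.24, -2.03 and -1.55) and Hhip and Gas1 higher (5.62 and 2.01). Notch genes gave 8 higher and 3 lower of 14 (median 0.64), with the ligand Dll1 and the target Nrarp higher (1.62 and 2.08) and the target Hes1 lower (-0.81). Of the Notch genes detected in both lines, 5 of 11 were higher and 3 lower (median -0.02).

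Secreted growth factors were higher in 20 of 32 and lower in 6 (median 1.14). Hgf, the ligand of Met, was at 0.448, 0.571 and 0.524 TPM in e1 and 24.9, 24.9 and 23.3 TPM in e2 (4.07 ± 0.07, adjusted p = 2.97e-07). The EGF receptor ligand Areg was at 9.14, 6.08 and 6.17 TPM in e1 and 86.3, 85.5 and 82.7 TPM in e2 (3.42 ± 0.14, adjusted p = 4.89e-06). Pdgfa was at 9.1 ± 2.12 TPM in e1 against 110.4 ± 3.78 TPM in e2 (3.49). Hgf, Areg and Pdgfa all lie on chromosome 5. Outside the 4 regions 15 of 26 ligands were higher, 6 lower and the median was 0.82. Lower in e2 were Vegfd (-1.99) and Pdgfc (-1.25) beside Igf2. Among receptor kinases, 9 of 21 were higher and 6 lower (median 0.13), near the shares over all tested genes. When e1 library 1 was left out, 11 were higher and 9 lower (median 0.21), and the median was 0.02 with median-ratio scaling. Egfr (8.51 ± 0.123 TPM in e1 against 3.73 ± 0.242 TPM in e2), Fgfr1 (73.4 ± 5.47 TPM in e1 against 40.5 ± 1.92 TPM in e2) and, by a small amount, Met (-0.31) were lower and Flt1 higher (1.16). Epha2, an ephrin receptor, was at 104 ± 23.2 TPM in e1 against 104 ± 0.696 TPM in e2 (95% interval of the difference -0.32 to 0.38). Without e1 library 1 it was higher in e2 (0.21, adjusted p = 4.92e-05). Axon guidance genes were higher in 25 of 34 and lower in 3 (median 1.04). Without e1 library 1, 27 were higher and 5 lower (median 1.04), and of those detected in both lines 21 of 29 were higher and 2 lower (median 1.02). The Slit ligand Slit2 (1.66 ± 0.131 TPM in e1 against 37.4 ± 1.64 TPM in e2) and the semaphorin receptor Plxnd1 (2.34 ± 0.743 TPM in e1 against 53.7 ± 0.57 TPM in e2) were higher while the Slit receptor Robo1 was lower. Retinoic acid genes were higher in 11 of 16 and lower in 3 (median 0.96). The retinal reductase Dhrs3 (1.28 ± 0.697 TPM in e1 against 15.1 ± 1.5 TPM in e2) was higher, opposite to Crabp2.

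Myc, the proto-oncogene that promotes ribosome production and growth, was lower in e2 at 549, 418 and 411 TPM in e1 and 81.8, 79.9 and 79.2 TPM in e2 (-2.49 ± 0.11, adjusted p = 6.70e-06). Pvt1, the noncoding RNA gene beside it, was at 90.7, 86.4 and 89.3 TPM in e1 and 6.38, 5.79 and 6.12 TPM in e2 (-3.66 ± 0.05, adjusted p = 1.98e-07). All e1 libraries were above all e2 libraries in both. Parental cells were between the lines for Myc (161 ± 10.2 TPM) and near e2 for Pvt1 (5.59 ± 0.915 TPM). Of 31 Myc-related and ribosome biogenesis genes, 21 were lower in e2 and 4 higher (median -0.91). Library 1 of e1 was the highest e1 library in 25 of them, and without it 21 were lower and 7 higher (median -0.71). The polymerase I subunit Polr1b (-1.44), spermidine synthase Srm (-1.31) and the transferrin receptor Tfrc (-1.2) were lower. So were the nucleolar proteins Fbl (-1.18), Nop56 (-1.16) and Npm1 (-0.98). Mycl, a Myc paralog, and Mxd4, a Myc antagonist, were higher (1.73 and 1.19).

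In the neighbourhood of Myc on chromosome 15, 6 consecutive tested genes were lower in e2. In order they were Gm19510 (2.56 ± 0.714 TPM in e1 against 0.992 ± 0.202 TPM in e2, -0.82), Fam84b (60818996 to 60826105, -1.22), 9930014A18Rik (-1.3), Myc (61985341 to 61990361), Pvt1 (62037986 to 62260215) and H2afy3 (-1.78). Of the tested genes flanking them, Trib1 was higher in e2 (0.64) and Fam49b was not called (-0.07, 95% interval -0.23 to 0.09). H2afy3 lies inside Pvt1, and 9930014A18Rik overlaps Fam84b. No source used here says whether the counting used strand, so reads of these overlapping pairs cannot be told apart. DNA copy number was not measured and its part was not tested.

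Cell cycle genes were lower in e2 in 21 of 34 and higher in 9 (median -0.24). D-type cyclins went in opposite directions. Ccnd2 was at 59.9, 51.1 and 50.9 TPM in e1 and 4.28, 4.42 and 4.41 TPM in e2 (-3.35 ± 0.08, adjusted p = 6.15e-07). Ccnd1 was at 266, 239.7 and 234 TPM in e1 and 796, 769.6 and 773 TPM in e2 (1.66 ± 0.06, adjusted p = 2.34e-06). Mki67, a proliferation marker, was slightly higher (44.7 ± 1.48 TPM in e1 against 59.9 ± 1.72 TPM in e2, 0.42) and Cdc20, a mitotic activator, lower (-0.69). Trp53, the p53 tumour suppressor, was lower in e2 (366 ± 24.3 TPM in e1 against 202 ± 2.54 TPM in e2, -0.85). Cdkn2a, a cyclin-dependent kinase inhibitor locus often lost in this cancer, was lower by a small amount (735 ± 24.6 TPM in e1 against 629 ± 17.1 TPM in e2, -0.22). Cdkn1a, a p53 target, was higher (4.04 ± 0.751 TPM in e1 against 23.6 ± 0.603 TPM in e2, 2.3). The list of p53 targets and cyclin-dependent kinase inhibitors gave 6 higher and 9 lower of 26 (median 0.02, -0.11 with median-ratio scaling and -0.08 without e1 library 1). Immediate early and MAP kinase feedback genes were higher in 18 of 30 and lower in 4 (median 0.48). They included Egr1 (49.6 ± 3.28 TPM in e1 against 239 ± 4.28 TPM in e2, 2.25), Fos (50.1 ± 3.68 TPM in e1 against 218 ± 4.49 TPM in e2, 2.1) and Junb (1.32). Chromatin regulators leaned lower, 16 of 30 against 5 higher (median -0.26). The deubiquitinase Usp22 (87.3 ± 9.59 TPM in e1 against 53 ± 1.02 TPM in e2, -0.70) and the maintenance methyltransferase Dnmt1 (-0.54) were lower. The demethylase Kdm3a was higher (13 ± 1.19 TPM in e1 against 21.4 ± 0.352 TPM in e2, 0.68).

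Lysosomal genes were higher in e2 almost without exception. Of 32 tested members, 31 were higher and none lower, with a median of 0.96. Library 1 of e1 was the lowest e1 library in 28 of them, and without it 32 were higher (median 0.88). Gpnmb, a lysosomal and melanosomal glycoprotein, was at 3.83, 8.67 and 7.98 TPM in e1 and 158, 155 and 154 TPM in e2 (4.39 ± 0.26, adjusted p = 1.73e-05). Ctsd, the protease cathepsin D, was at 263, 284 and 288 TPM in e1 and 794, 778 and 781 TPM in e2 (1.49 ± 0.04, adjusted p = 1.61e-06). The hydrolase Hexa (1.67), the acid lipase Lipa (1.75) and the membrane protein Lamp2 (1.24) were higher. So was Mitf, a transcription factor of lysosomal genes (0.628 ± 0.0378 TPM in e1 against 3.09 ± 0.169 TPM in e2), and more modestly Tfeb and Tfe3 (0.72 and 0.26).

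Of the glutathione and oxidant defence genes, 15 of 32 were higher and 6 lower (median 0.38). With e1 library 1 left out, 18 were higher and 11 lower (median 0.21), and 10 were lower with median-ratio scaling. In those detected in both lines, 12 of 29 were higher and 6 lower (median 0.33). Mgst1 was at 0.587, 2.35 and 1.64 TPM in e1 and 189.8, 178 and 176 TPM in e2 (6.24 ± 0.26, adjusted p = 4.82e-06). The transferases Gstt1 (0.438 ± 0.102 TPM in e1 against 28 ± 0.59 TPM in e2, 4.34) and Mgst2 (50.8 ± 20.6 TPM in e1 against 329.7 ± 12.7 TPM in e2, 2.77) were higher too, and the oxidant-response factor Nfe2l2 was higher (84.8 ± 6.65 TPM in e1 against 221 ± 8.12 TPM in e2, 1.38). Glycolytic and hypoxia genes gave 15 higher and 8 lower of 30 (median 0.16). Aldolase (Aldoa, 619 ± 36.7 TPM in e1 against 1481 ± 7.98 TPM in e2, 1.26) and the lactate exporter Slc16a3 (1.85) were higher and hexokinase Hk2 was lower (22.3 ± 7.95 TPM in e1 against 8.07 ± 0.405 TPM in e2, -1.31). Of the list of ATF4-linked stress genes, the amino acid enzymes Phgdh (-0.86), Shmt2 (-0.93) and Asns (-0.75) were lower. Ddit3 and Vldlr of the same list were higher (1.44 and 2.07), and the list gave 8 in each direction of 23 (median 0.05, and -0.07 with median-ratio scaling). When e1 library 1 was left out, 11 were higher and 8 lower (median 0.14), and of those detected in both lines 6 of 20 were higher and 7 lower (median 0.02). Cholesterol synthesis genes gave 6 higher and 5 lower of 25 (median -0.01), but 13 and 9 (median 0.10) without e1 library 1, the highest e1 library in 24 of them. Lower members numbered 9 with median-ratio scaling and 2 to 3 when an e2 library was left out. In fatty acid synthesis, 6 of 14 were lower and 4 higher (median -0.21), the elongase Elovl6 among the lower (-1.14). Without e1 library 1, 5 were higher and 6 lower (median -0.07). Endoplasmic reticulum folding genes were higher in 13 of 18 and lower in 4 (median 0.30), a count that dropped to 7 higher with median-ratio scaling and to 2 lower without e2 library 3.

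Epithelial genes still detected in the escape lines were more often higher in e2, 12 of 19 tested against 5 lower (median 1.05), though 20 of the 40 listed were under 1 TPM in all 6 libraries. Through 1 line alone 5 entered by e2 and 3 by e1, and of the other 11, 7 were higher and 2 lower (median 1.31). Krt7, a ductal keratin, was at 1.14, 1.16 and 0.835 TPM in e1 and 29.9, 26.3 and 28 TPM in e2 (3.83 ± 0.09, adjusted p = 7.32e-07). Cldn3, a tight junction claudin, was at 0.336, 0.287 and 0.136 TPM in e1 and 24.7, 27.1 and 28.9 TPM in e2 (4.48 ± 0.10, adjusted p = 4.88e-07). Krt18 (377 ± 56.2 TPM in e1 against 1012 ± 20.9 TPM in e2) and Cdh1, the adherens junction cadherin (9.56 ± 2.58 TPM in e1 against 21 ± 0.82 TPM in e2, 1.09), were higher too. The basal keratin Krt14 (8.05 ± 0.961 TPM in e1 against 0.622 ± 0.263 TPM in e2) and the P-cadherin Cdh3 (3.56 ± 0.554 TPM in e1 against 0.0703 ± 0.012 TPM in e2) were lower. Lower as well were 2 more abundant members. Krt8 was at 689, 791 and 760 TPM in e1 and 581, 572 and 575 TPM in e2, and Jup at 71.7, 88.7 and 89.3 TPM in e1 and 44, 40.6 and 40.4 TPM in e2. Krt19 was at 24.1, 57.5 and 54.1 TPM in e1 and 75.9, 68.1 and 72.8 TPM in e2, where e1 library 1 was far from the other 2. It was not called with all libraries (0.76, 95% interval 0.00 to 1.52, adjusted p = 0.0686) and was higher in e2 without that library (0.37, adjusted p = 5.34e-05). Parental levels exceeded both lines by a wide margin for Krt7 (2264 ± 163 TPM), Cldn3 (244 ± 21.5 TPM) and Cdh1 (227 ± 4.92 TPM). Classical subtype genes of pancreatic cancer gave 8 higher and 3 lower of 14 (median 0.64), but 6 of the 14 passed the filter through e2 alone. Of the other 8, 2 were higher and 3 lower (median 0.31), with Cdx2 and Foxa2 lower (-1.89 and -1.23) and Sox9 higher (1.2). Basal-like genes gave 5 higher and 2 lower of 8 (median 1.71).

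Parental levels were then set beside those of the 2 lines. Among the 1674 genes higher in e2 by at least 1, e1 was nearer to the parental mean for 1018 (60.8%) and e2 for 656, and the parental mean lay between the lines for 836. Among the 596 lower by at least 1, e1 was nearer for 265 (44.5%) and e2 for 331, and the parental mean lay between them for 326. These are positions of means on the log2(TPM + 1) scale, with no test.

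**Figure D4:**
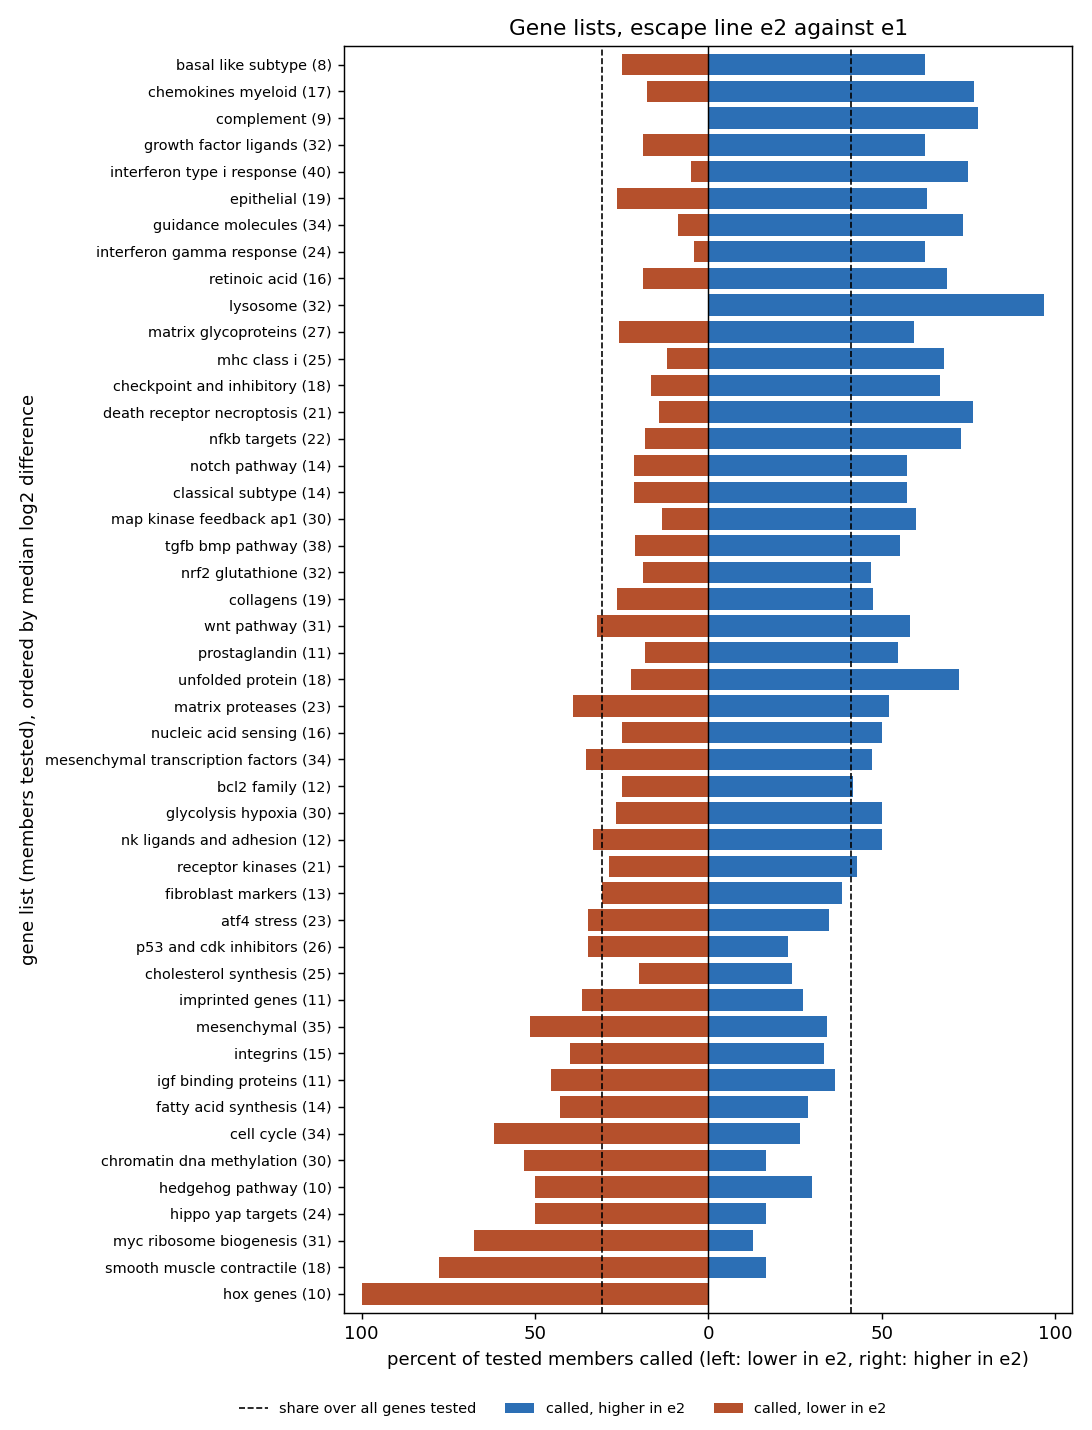
Percent of tested members called higher (blue, right) or lower (orange, left) in e2 for each gene list with 8 or more tested members, ordered by median log2 difference, with dashed lines at the shares over all tested genes (41.1% and 30.7%). Lysosome genes are the most uniformly higher and Hox, contractile and Myc-related genes the most uniformly lower, with 9 of the 10 Hox genes tested through e1 alone.

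Differences also varied with position in the genome. On chromosome 5, 608 of 775 tested genes were higher in e2 and 46 lower, with a median of 0.65. All 14 of its bins of 10 Mb with 10 or more tested genes had a median above 0 (0.43 to 1.09). Chromosome 1 divided: below 90 Mb 248 of 300 genes were higher and 13 lower (median 0.86, bins from 0.72 to 1.18). From 90 Mb on, 119 of 388 were higher and 146 lower (median -0.08, bins from -0.20 to -0.03). Chromosome 16 had 261 of 371 lower and 40 higher (median -0.57), and chromosome 14 had 260 of 400 lower and 61 higher (median -0.50). No bin of either chromosome had a median above 0. The bounds of chromosome 1 and the 4 regions were chosen after the values had been seen. Smaller shifts were present elsewhere: on chromosome 4 below 90 Mb (153 of 260 higher and 41 lower, median 0.33), chromosome 7 from 50 Mb (338 of 489 higher and 49 lower, median 0.45), chromosome 12 (90 of 420 higher and 227 lower, median -0.27), chromosome 13 (234 of 489 higher and 89 lower, median 0.24) and chromosome 18 (178 of 298 higher and 45 lower, median 0.35). Genes of these 5 remain in the counts given outside the 4 regions. Chromosome 8 stepped too, with bin medians of -0.44 to -0.14 below 40 Mb and -0.08 to 0.18 beyond. It was not set apart in any count.

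Set against the parental cells, the line that departed from them differed by region. Chromosome 5 was lower in e1 than in parental cells (median -0.52) and near them in e2 (0.07), while chromosome 16 was near them in e1 (0.00) and lower in e2 (-0.62). Chromosome 14 was higher in e1 (0.58) and nearer in e2 (0.10), and the lower part of chromosome 1 was below parental in e1 (-0.47) and above it in e2 (0.36). Spp1, Hgf, Areg, Cxcl5, Slit2 and Oas1a lie on chromosome 5, and Serpine2, Fn1 and Col5a2 on the lower part of chromosome 1. Robo1, Fstl1, Snai2 and Alcam lie on chromosome 16. The difference of each of these genes was larger than the median of its region, which was close to fixed in advance. They were named for large differences or after their values had been seen. Psme1, on chromosome 14, differed by less than the median of that chromosome. Without the genes of the 4 regions, 4024 of 10286 genes (39.1%) were higher and 3142 (30.5%) lower. Without the 5 further regions as well, 3031 of 8330 (36.4%) were higher and 2691 (32.3%) lower. DNA copy number was not measured, and its part in these shifts was not tested.

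**Figure D5:**
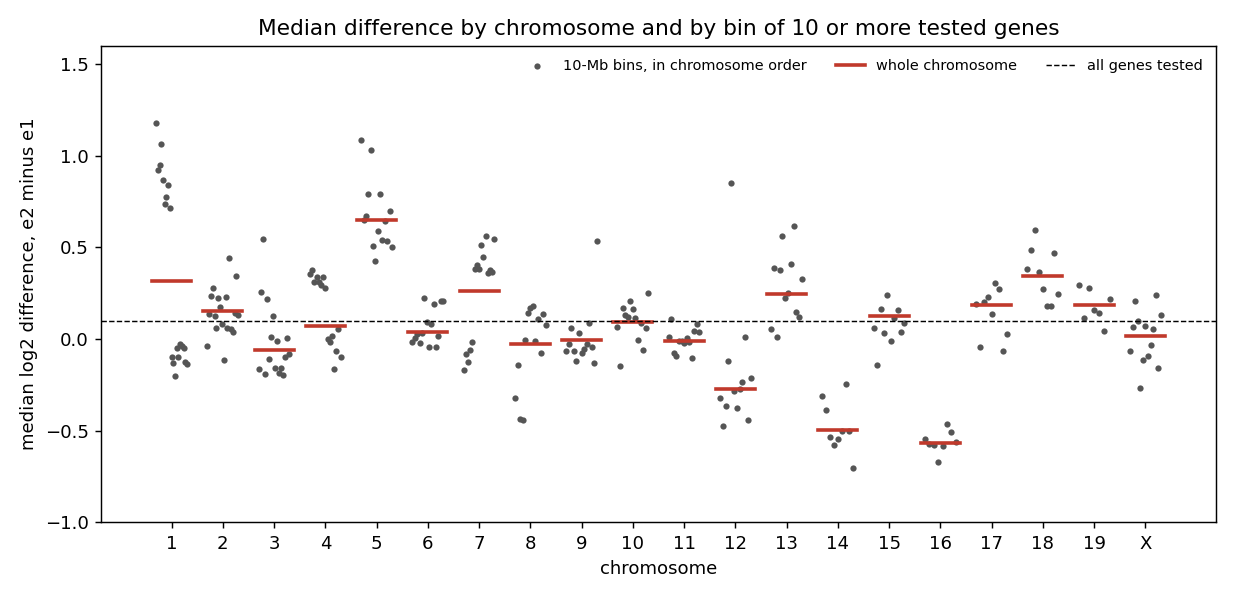
Median log2 difference (e2 minus e1) of tested genes per chromosome (red bars) and per 10-Mb bin of 10 or more genes, drawn left to right in chromosome order (grey points), with the median of all tested genes dashed. Chromosome 5 and the lower part of chromosome 1 stand above and chromosomes 14 and 16 below. Chromosomes 4, 7 and 8 step within their length.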

How the data were processed

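RNA was sequenced from 9 libraries, 3 each of parental, e1 and e2 cells. The authors deposited gene-level TPM values, and a table of regularized log2 values (rlog) used here only as an alternative; Salmon, DESeq2 and the build mm10 are named without version or role in the submitters' processing notes. TPM is relative to the library's total and gene length, so it carries no depth. Values were transformed as log2(TPM + 1), genes with 1 TPM or more in 3 or more of the 6 e1 and e2 libraries were kept, and e2 was compared with e1 in limma 3.58.1 (R 4.3.3) with a mean trend and robust estimation, Benjamini-Hochberg adjustment over all 12132 genes and a threshold of 0.05. In simulated data made from the same libraries, 63 of 67 genes changed by 1 on the log2 scale and 46 of 67 changed by 0.5 were recovered, with 10 of 11932 unchanged genes called. The changed genes were drawn only from those of higher mean level and were far fewer than the genes called in the data. Simulated noise was normal and independent between genes. Recovery of low genes was therefore not tested, and these rates need not hold in the data. RefSeq positions and promoters (GRCm38.p6) were matched by symbol, giving 12053 tested genes a position. Genes were named as the 15 most changed in each direction with 10 TPM or more in the higher line and no overlap, up to 4 called members per direction and up to 3 uncalled members of a list, and a set of marker and tumour genes whatever their result; other list members and the neighbours of Myc were named after their values had been seen. Some genes that this rule names are not reported here. The comparison, the lists and their members were chosen with earlier results of these data known, and the CArG motif, the chromosome regions and the counts among members detected in both lines after these results had been seen. Alternatives were another pseudocount and filters, median-ratio scaling (each library divided by the median of its ratios to the geometric mean of each gene), removal of the 10 highest genes, rlog values, a fit with all 9 libraries, no trend or robust estimation, a replicate block and leaving out each library. Without replicate cultures named in the labels, libraries were the unit of every test.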

Additional observations from a re-analysis of the deposited data

How the results depend on the processing

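The number of genes called was 7293 with a filter of 5 TPM, 9870 with no filter, 8636 with a pseudocount of 0.1, 8683 with rlog values, 8665 with neither trend nor robust estimation, 8756 without the 10 highest genes and 8981 in a fit with all 9 libraries; leaving out each library in turn gave 7652 to 9891 calls, 4376 to 5515 of them higher and 3209 to 4376 lower in e2. Genes higher by at least 1 numbered 1245 to 2007 and those lower by at least 1 numbered 478 to 772 over these settings and median-ratio scaling. The replicate numbers shared by the lines did not pair the libraries: deviations of same-numbered libraries correlated at 0.07, 0.03 and -0.02, and not every library correlated best with its own number. With the replicate number as a block, 8334 genes were called, Zeb1 (adjusted p = 0.111) and Mbp (adjusted p = 0.079) lost their calls and Cxcl10 gained one (adjusted p = 0.0256); the block changed the call of no other named gene.

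Among uncalled genes the sign turned with median-ratio scaling and with rlog values, respectively, for Vim (-0.0958 and -0.0603, called at an adjusted p of 0.0185 with the former), Sparc (-0.0323 and -0.00514), Pdgfrb (-0.0451 and -0.0169), Epha2 (-0.0953 and -0.0603), Tapbp (-0.0497 and -0.0205) and Xist (-0.0334 and -0.00734). Leaving out each library in turn gave -0.44 to 0.166 for Isg15, -0.604 to 0.00938 for Ifit1, -0.021 to 0.057 for Vim, -0.196 to 0.212 for Pdgfrb and -0.059 to 0.206 for Epha2. The integrin median was 0.02 with the filter of 5 TPM, which leaves fewer members, and the imprinted median 0.07 with no filter, which adds members. Depth is unknown, so the limit it sets on low genes was not tested.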
